A study of Mus musculus with 4 samples.

Results

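Transcripts of 8 surface receptors and adaptors that set how strongly a T cell is activated were followed through the lymphocytes of the gut epithelium: Cd2, Cd5, Cd6, Cd27, Cd28, Thy1, Cd48 and Sit1. Natural intraepithelial lymphocytes are known to lack CD2, CD5, CD28 and Thy-1, and the question was which T cells, sorted by their own receptor and coreceptor transcripts, lack the corresponding mRNA. The 8 genes and the gates were chosen with earlier results of these data known. All 8 symbols were among the 16500 listed in any library and among the 13102 listed in every one, and they were read in 9252 Cd3-positive cells of 14378 cell barcodes. Each of the 4 libraries came from live CD45.2+ leukocytes of the epithelial layer of 1 tissue (stomach, small intestine, cecum or colon) of uninfected C57BL/6 mice. No allele, transgene or treatment is given for any of them, and the number of animals behind a library is not given in the sources used here. With 1 library per tissue, tissue, animal and library cannot be told apart.

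Intraepithelial lymphocytes sit between the epithelial cells of the gut. Those called natural carry a γδ T cell receptor, or an αβ receptor with CD8αα homodimers, and acquire their program in the thymus; those called induced or conventional carry an αβ receptor with CD4 or CD8αβ and descend from ordinary T cells that met antigen in the periphery. CD2 and its ligand CD48 are an adhesion pair, CD5 and CD6 are scavenger-receptor family proteins that dampen receptor signalling, CD28 and CD27 are costimulatory receptors, Thy-1 (CD90) is a glycosylphosphatidylinositol-anchored protein of mouse T cells, and SIT (the product of Sit1) is a transmembrane adaptor that restrains signalling.

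Cells were called Cd3-positive with at least 2 unique molecular identifiers (UMIs, each standing for 1 captured mRNA) over Cd3d, Cd3e and Cd3g, and were divided into gates that do not overlap. The Trdc gate had Trdc, the constant segment of the δ chain, and neither Cd8b1 nor Cd4. The Cd8a-only gate had Cd8a without Trdc, Cd8b1 or Cd4; the Cd8b1 and Cd4 gates had that coreceptor and neither of the other lineage transcripts. The negative gate had none of the 4 gate transcripts. A gate rests on detected mRNA: a cell of the negative or Cd8a-only gate may carry a coreceptor transcript that was not captured. In the order stomach, small intestine, cecum and colon, the Trdc gate held 42, 1552, 501 and 882 cells, the Cd8a-only gate 5, 448, 992 and 1318, the Cd8b1 gate 47, 89, 138 and 142, the Cd4 gate 27, 70, 46 and 57, and the negative gate 118, 146, 1673 and 845. Cells with at least 2 of Trdc, Cd8b1 and Cd4 numbered 0, 76, 13 and 25 and entered no test.

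The 8 genes lie on 6 chromosomes of GRCm38. Cd5 (chr19:10717116-10739002) and Cd6 (chr19:10789341-10830058), related in sequence, are neighbours on the minus strand with 50338 bases between them. Cd28 (chr1:60716800-60773359) and Cd48 (chr1:171682009-171705258) are on the plus strand of chromosome 1, Cd2 (chr3:101275899-101287939) and Sit1 (chr4:43482081-43483734) are on minus strands, and Thy1 (chr9:44043384-44048579) is on a plus strand. Cd27 (chr6:125232622-125237010, minus strand) overlaps Vamp1 on the other strand and the microRNA gene Mir8113, and Cd48 overlaps the unclassified transcript Gm37010, so reads of the overlapping parts are uncertain: Vamp1 can be told apart only if counting used strand, and Mir8113 and Gm37010 lie on the same strand as the member they overlap. RefSeq promoter sequence was matched for 4 of the 8 members (Cd5, Cd27, Cd48 and Sit1). Of these, 3 are shown, because the transcripts of Cd5 and Sit1 differed most clearly between gates among the matched genes, and that of Cd48 served as the contrast. Each run holds the 220 bases from 250 to 31 bases before the RefSeq start, read on the gene's own strand, and capitals mark GGAA or its complement TTCC, the core bound by ETS-family factors.
Cd5 (GRCm38.p6, chr19:10739005-10739224, minus strand): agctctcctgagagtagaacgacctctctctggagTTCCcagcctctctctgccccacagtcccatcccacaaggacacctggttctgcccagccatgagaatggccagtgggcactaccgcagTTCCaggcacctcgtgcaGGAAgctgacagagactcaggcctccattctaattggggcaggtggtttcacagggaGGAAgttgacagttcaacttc
Sit1 (GRCm38.p6, chr4:43483740-43483959, minus strand): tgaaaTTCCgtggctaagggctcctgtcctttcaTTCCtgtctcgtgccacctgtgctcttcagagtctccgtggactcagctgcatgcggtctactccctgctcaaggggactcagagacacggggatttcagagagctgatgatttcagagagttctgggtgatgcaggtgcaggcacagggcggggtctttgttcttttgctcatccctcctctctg
Cd48 (GRCm38.p6, chr1:171681742-171681961, plus strand): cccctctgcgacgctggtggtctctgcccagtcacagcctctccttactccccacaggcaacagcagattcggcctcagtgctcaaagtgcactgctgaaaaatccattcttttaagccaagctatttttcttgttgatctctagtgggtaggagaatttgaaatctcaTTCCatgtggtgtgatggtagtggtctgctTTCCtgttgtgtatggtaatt
The ETS core was found 4 times in the Cd5 window, 2 times in that of Sit1 and 2 times in that of Cd48. The E-box letters CANNTG were found 2, 3 and 1 times in the same order, and the RUNX letters TGTGGT, searched like the others on both strands, only in the Cd48 window of these 3. Such letters are common: 91.1% of 32851 RefSeq promoter windows of this length held GGAA, 62.1% held CANNTG and 12.7% held TGTGGT, so the matches describe the sequence and single out none of the genes.

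The gates were checked against transcripts that did not define them. Tcrg-C1, a γ chain constant segment, stood at 301, 383, 252 and 360 CPM (counts per 1000000 UMIs, summed over the cells of a gate) in the Trdc gate of stomach, small intestine, cecum and colon, and at 113 or less in every other gate. Other receptor segments separated the gates less. In small intestine, cecum and colon, Tcrg-C2 was at 99.5, 78.2 and 81.15 CPM in the Trdc gate, against 71.1, 61.0 and 81.44 in the Cd8a-only gate. Tcrg-C4 was at 61.7, 56.1 and 68.4 CPM, against 59.4, 33.4 and 56.55. The β chain segment Trbc1 was at 1147, 1336 and 1365 CPM, against 1237, 1482 and 1395. Trac, the α chain constant segment, was not absent from the Trdc gate: its level was 114, 428, 503 and 486 CPM there, against 1023, 1072 and 1123 in the Cd8a-only gate of small intestine, cecum and colon. The Trdc gate therefore held α chain transcripts at a lower level than the other gates, and their source was not tested. Cells with a UMI of Ncr1 or Eomes, which mark natural killer cells, made up 28.6% of the stomach Trdc gate, 23.7% of the stomach negative gate and 14.9% of the stomach Cd8b1 gate, and at most 5.44% of any gate in the other 3 libraries. The libraries held between 8568438 and 12988676 UMIs, with medians of 1707 to 2983 per barcode, gate medians ran from 1685 to 3307 UMIs per cell, and each pair of libraries shared between 1 and 6 barcodes.

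The cells that are natural by these gates carried less of 6 of the 8 transcripts. Against the mean of the Cd8b1 and Cd4 gates, the mean of the Trdc and Cd8a-only gates was 13.3-fold lower for Cd5, 7.0-fold lower for Cd6, 6.49-fold lower for Cd28, 4.59-fold lower for Sit1, 3.26-fold lower for Cd2 and 2.12-fold lower for Thy1 (edgeR quasi-likelihood test on gate sums with the library as a block, Benjamini-Hochberg adjusted p between 9.24e-06 and 0.0140 for these 6). The sizes of the Cd5 and Sit1 differences are uncertain. In the Trdc and Cd8a-only gates of small intestine, cecum and colon neither transcript was separated from background, as shown further on. Cd27 and Cd48 were not called, and no member was higher (0 by edgeR, 0 at an unadjusted p under 0.05 and 0 by DESeq2). Over the 7157 genes tested, 7.31% were called lower and 6.05% higher in this contrast. The members and gates were chosen with earlier results of these data known, so these shares do not make the count a test of the set. The median log2 fold change was -1.95 over the 8 members and 0.01 over all genes tested. The 4 libraries supply the spread in this fit, so its p-values state how alike the tissues were and not how alike animals are. The stomach Cd8a-only gate had 5 cells and was left out of it. Leaving out the colon library ended the calls for Cd2 (adjusted p = 0.0653) and Thy1 (adjusted p = 0.191), and leaving out the small intestine added Cd27 (log2 fold change -0.63, adjusted p = 0.00351); over all alternatives the adjusted p ran from 2.13e-10 to 0.0908 for Cd2, from 4.01e-05 to 0.191 for Thy1 and from 0.00351 to 0.824 for Cd27. The number of members called lower was 6 without cells that carried Ncr1 or Eomes, 6 without the stomach library, and 4 without the colon library. Over all genes 523 were called lower with all libraries and 235 without the colon library.

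**Figure D1:**
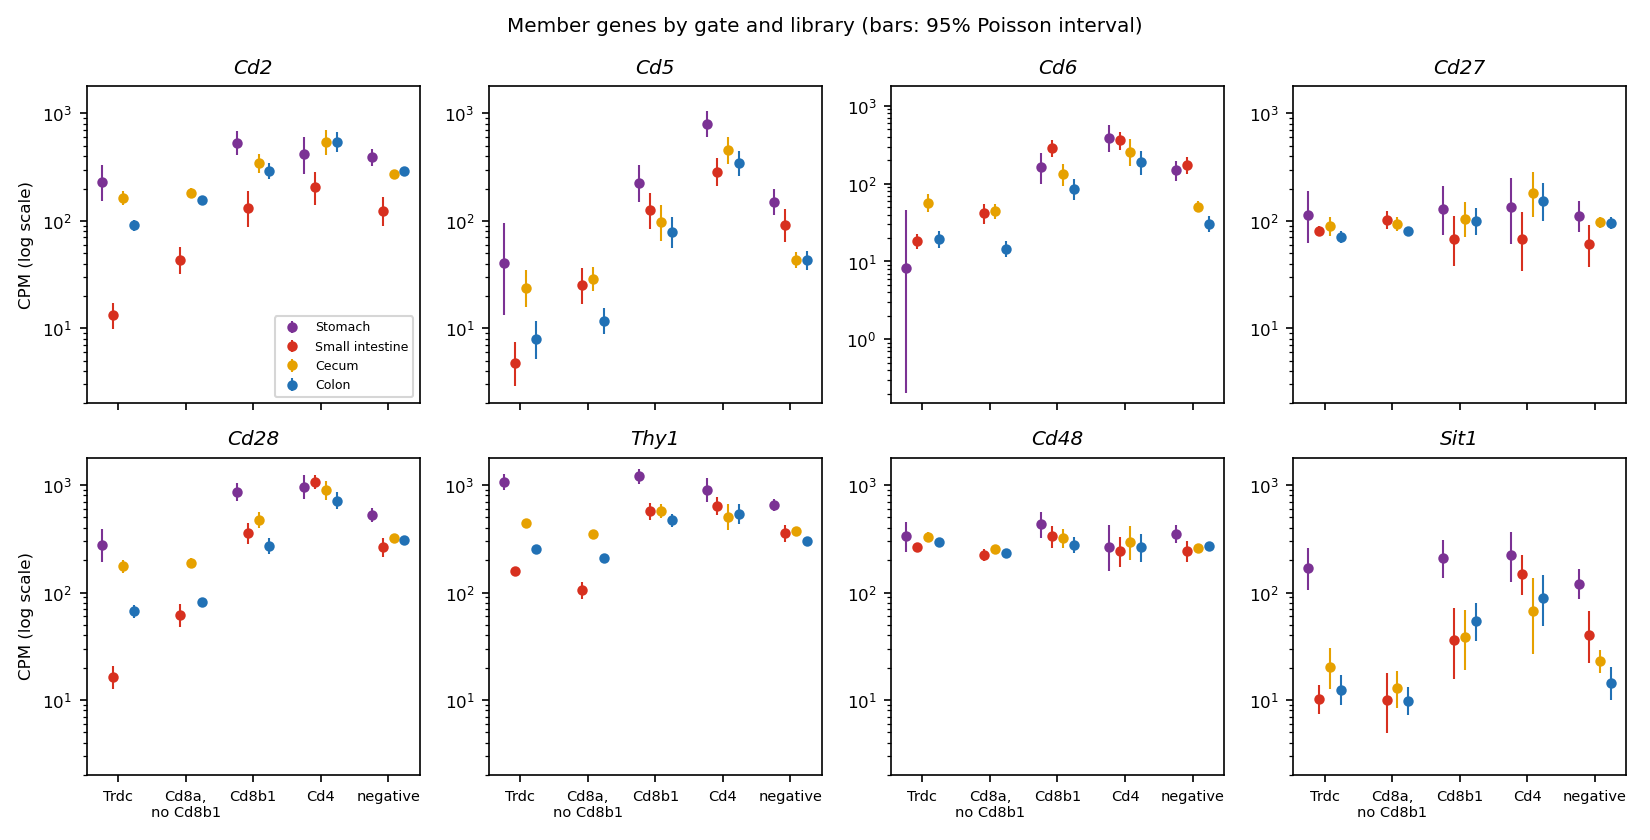
Level of each of the 8 genes (CPM on a log axis) in 5 gates of Cd3-positive cells, with 1 point per library and bars for the 95% Poisson interval of the count; the stomach Cd8a-only gate (5 cells) is left out. Cd5, Cd6 and Cd28 sit lower in the Trdc and Cd8a-only gates than in the Cd8b1 and Cd4 gates of the same library. Cd48 spans 225 to 430 CPM over all points, and Cd27 in cecum and colon is higher in the Cd4 gate than in the Trdc gate.

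Cd2, the adhesion and costimulatory receptor, varied widely between tissues. In the Trdc gate its level was 228 CPM (stomach), 13.2 (small intestine), 163 (cecum) and 90.6 (colon). Its level in the Cd8a-only gate was 43.2, 183 and 155 CPM in small intestine, cecum and colon. The Cd8b1 gate had 536, 131, 344 and 290 CPM and the Cd4 gate 415, 205, 544 and 546 CPM, in the order stomach, small intestine, cecum, colon. Within each library both natural-type gates were below both conventional gates, but across libraries the ranges overlapped: the stomach Trdc gate was above the small intestinal Cd8b1 and Cd4 gates. The contrast gave a log2 fold change of -1.70 (SE 0.27, adjusted p = 0.000968 by edgeR). Taken gate by gate, Cd2 was 2.11-fold lower in the Trdc than in the Cd8b1 gate of the cecum (95% counting interval 1.64 to 2.72). In the small intestine, where Cd2 in the Trdc gate was not separable from background, it was at least 6.11-fold lower by the lower bound of the interval.

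Cd48 encodes the ligand of CD2 and is carried by most leukocytes. In the Trdc gate it stood at 334, 268, 331 and 296 CPM in stomach, small intestine, cecum and colon, and in the Cd4 gate at 267, 242, 296 and 264 CPM. The Cd8b1 gate (430, 334, 320 and 277 CPM) and the 3 tested Cd8a-only gates (225, 256 and 234 CPM) overlapped this range as well. Its log2 fold change between natural-type and conventional gates was -0.10 (SE 0.09, adjusted p = 0.531), a difference that the test did not separate from 0. In 1 pair of gates Cd48 was called: it was 1.34-fold lower in the Cd8a-only than in the Cd8b1 gate (log2 fold change -0.42, SE 0.11, adjusted p = 0.0280), a call that was lost when any of the 4 libraries was left out (adjusted p = 0.0695 without stomach, 0.181 without small intestine, 0.174 without cecum and 0.154 without colon), and under 5 other alternatives, with values from 0.0107 to 0.505 over all of them. Cells of other lineages carried Cd48 too, at 109 to 195 CPM in B-marked cells and 123 to 236 CPM in macrophage- or mast-marked cells.

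Cd5, whose protein lowers receptor signalling and is known to follow its strength in the thymus, had the largest estimated difference of the 8. The Trdc gate of the stomach had 40.7 CPM on 5 UMIs, and those of small intestine, cecum and colon had 4.79, 23.9 and 7.90 CPM. The Cd8a-only gate had 25.2, 29.0 and 11.8 CPM in small intestine, cecum and colon. By contrast the Cd8b1 gate had 227, 126, 97.3 and 79.2 CPM and the Cd4 gate 800, 285, 458 and 346 CPM. Among the gate sums that were tested, the lowest conventional value (79.2, colon Cd8b1) was above the highest natural-type value (40.7, stomach Trdc). How many of all genes had gate sums apart in this way was not counted. In the same contrast 7.31% of all genes were called lower. The untested stomach Cd8a-only gate (5 cells) was at 268 CPM on 4 UMIs, above all 4 Cd8b1 values. The log2 fold change was -3.73 (SE 0.33, adjusted p = 9.24e-06), and it stayed between -4.25 and -3.48 over all alternatives. Against the Cd4 gate alone, the lower interval bounds put Cd5 in the Trdc gate at least 34.6-fold lower in small intestine and at least 11.7-fold lower in cecum; only bounds are given because Cd5 there was not separable from background, as shown further on.

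Cd6, which encodes the receptor for the adhesion molecule CD166, followed the same order. The Trdc gate had 18.2, 57.1 and 19.5 CPM in small intestine, cecum and colon, and 8.14 CPM on 1 UMI in stomach. The Cd8a-only gate had 41.4, 44.3 and 14.6 CPM. Levels in the Cd8b1 gate were 162, 284, 132 and 85.4 CPM and in the Cd4 gate 385, 360, 258 and 188 CPM, all above the tested natural-type gates; the untested stomach Cd8a-only gate was at 134 CPM on 2 UMIs, within the Cd8b1 range. For Cd6, as for Cd5, the share of all genes with conventional gates above all tested natural-type gates was not counted. The log2 fold change was -2.81 (SE 0.41, adjusted p = 0.000619). Between tissues, the colon over small intestine ratio of Cd6 in the Trdc gate was 1.07 (0.755 to 1.51), and the cecum was 3.14-fold higher than the small intestine (2.21 to 4.45).

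Cd28, the costimulatory receptor for CD80 and CD86, had its highest value in the Cd4 gate of every library. The Trdc gate had 277, 16.3, 176 and 66.6 CPM in stomach, small intestine, cecum and colon, and the Cd8a-only gate 61.2, 189 and 81.0 CPM in the last 3. The Cd8b1 gate had 868, 356, 473 and 273 CPM, and the Cd4 gate 963, 1073, 898 and 716 CPM. Among the tested gate sums, the stomach Trdc value alone reached the lowest conventional value, the colon Cd8b1 gate; the 5 stomach Cd8a-only cells, at 402 CPM on 6 UMIs, were above it too. The log2 fold change was -2.70 (SE 0.39, adjusted p = 0.000512). Within the small intestine Cd28 was 66.0-fold lower in the Trdc than in the Cd4 gate (49.6 to 88.7) and 21.9-fold lower than in the Cd8b1 gate (15.6 to 30.7), whereas in stomach it was 3.48-fold lower than in the Cd4 gate (2.27 to 5.44).

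Cd27, the receptor for CD70 and a member of the tumour necrosis factor receptor family, separated from Cd28. Its level was 114, 81.1, 89.3 and 70.8 CPM in the Trdc gate, 103, 93.4 and 79.7 CPM in the Cd8a-only gate, 130, 67.6, 104 and 100 CPM in the Cd8b1 gate and 133, 68.2, 181 and 153 CPM in the Cd4 gate, with the libraries in the order used above. In the small intestine the natural-type gates were the higher ones in these counts, and in the cecum and the colon the lower ones; the small intestinal Trdc over Cd4 ratio was 1.19 with a counting interval that included 1. The log2 fold change over the 4 libraries was -0.37 (SE 0.15, adjusted p = 0.0927).

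Thy1, the T cell glycoprotein CD90, was lower in the natural-type gates over the 4 libraries, with the stomach apart. The Trdc gate had 1074, 159, 443 and 255 CPM in stomach, small intestine, cecum and colon, and the Cd8a-only gate 104, 354 and 210 CPM in the last 3. The Cd8b1 gate had 1209, 568, 577 and 469 CPM and the Cd4 gate 904, 639, 506 and 540 CPM. In stomach the Trdc gate lay between the Cd8b1 and Cd4 gates, with a Trdc over Cd4 ratio of 1.19 whose interval included 1, while in small intestine Thy1 was 4.02-fold lower than in the Cd4 gate (3.24 to 4.96) and in cecum 1.14-fold lower with an interval that included 1 (0.844 to 1.52). The log2 fold change was -1.08 (SE 0.25, adjusted p = 0.0140), and the call ended without the colon library as given above. In edgeR the 4 pairwise gate contrasts did not call Thy1, with a smallest adjusted p of 0.0522 for the Cd8a-only against the Cd4 gate. DESeq2 called it lower in the Cd8a-only gate against both Cd8b1 (adjusted p = 0.00176) and Cd4 (0.000891), and adjusted p ran from 0.00176 to 0.541 and from 0.000891 to 0.323 over the alternatives of these contrasts.

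Sit1, the SHP2-interacting adaptor, was a low-abundance transcript outside the stomach. The Trdc gate had 171 CPM in stomach and 10.3, 20.3 and 12.5 CPM in small intestine, cecum and colon, close to the 9.90, 12.8 and 9.83 CPM of the Cd8a-only gate. The Cd8b1 gate had 211, 36.1, 38.2 and 54.2 CPM and the Cd4 gate 222, 149, 66.8 and 88.0 CPM. Within each library the tested natural-type values were below both conventional values. Across libraries the stomach Trdc value was inside the conventional range and the other tested natural-type values were below that range. The log2 fold change was -2.20 (SE 0.33, adjusted p = 0.000130).

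**Figure D2:**
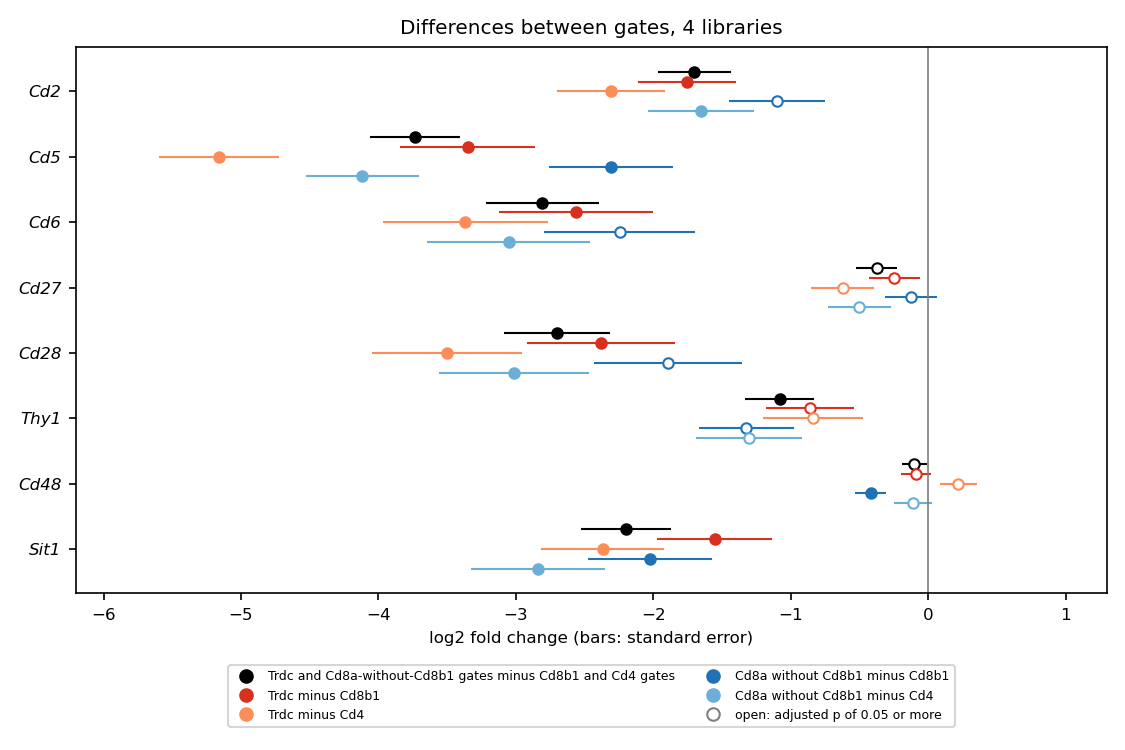
Log2 fold change (x axis) of each gene in the combined contrast and in 4 pairwise gate contrasts, with bars for the standard error; filled points have an adjusted p under 0.05. Cd5, Cd6, Cd28, Sit1, Cd2 and Thy1 lie left of 0 in all 5 contrasts; Cd27 reaches -0.62 (Trdc minus Cd4, open) and Cd48 -0.42 (Cd8a-only minus Cd8b1, filled).

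The pairwise contrasts showed which gate pairs carried the difference. Between the Trdc and Cd8b1 gates 5 of 8 members were called lower (Cd2, Cd5, Cd6, Cd28 and Sit1), against 2.12% of all genes. Between the Trdc and Cd4 gates the same 5 were lower, against 6.37% of all genes, with Cd5 35.8-fold (log2 fold change -5.16, SE 0.44) and Cd28 11.3-fold lower (-3.50, SE 0.54). Cd5 in the Trdc gate was not separable from background in small intestine, cecum and colon, so the size of its fold is uncertain. The Cd8a-only gate was lower than the Cd8b1 gate for 3 members (Cd5, Sit1 and Cd48; 1.73% of all genes), and lower than the Cd4 gate for 5 members, again Cd2, Cd5, Cd6, Cd28 and Sit1 (6.48% of all genes). DESeq2 called 7 members lower against the Cd8b1 gate and 6 against the Cd4 gate, with 156 and 518 of 7157 genes. The edgeR counts lean on the libraries. Without the colon they were 0, 2, 0 and 2 in the order of the contrasts above. Over all genes the lower calls also fell without the colon, from 152, 456, 124 and 464 to 51, 201, 43 and 194. Without the stomach 2 and 1 members were called for the Trdc and Cd8a-only gates against the Cd8b1 gate, with 115 and 93 of all genes. Leaving out the small intestine gave 3 members for the Trdc against Cd8b1 comparison (93 of all genes). Leaving out the cecum gave 2 members for that comparison (111 of all genes) and 1 for Cd8a-only against Cd8b1 (73 of all genes). The contrasts share gates, so their calls are not separate lines of evidence.

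The Trdc and Cd8a-only gates gave no member that passed the threshold in edgeR. In edgeR 0 of 8 members were called either way, against 0.587% of all genes; 1 member (Cd48) had an unadjusted p under 0.05, and DESeq2 called it higher in the Trdc gate. The estimates ranged from -1.05 (SE 0.48, unadjusted p = 0.0507) for Cd5 to 0.47 (SE 0.40) for Sit1 on the log2 scale. Cd48 was estimated at 0.33 (SE 0.09, adjusted p = 0.131); it was called with DESeq2 (adjusted p = 0.0280) and without the stomach library (adjusted p = 0.0427), with values from 0.0280 to 1 over all alternatives. Within single libraries the counts did differ: Cd28 was 3.76-fold lower in the Trdc than in the Cd8a-only gate of the small intestine (2.65 to 5.34), and 1.07-fold lower in the cecum with an interval that included 1 (0.901 to 1.28). Thy1 went the other way, 1.52-fold higher in the Trdc gate of the small intestine.

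Cd3-positive cells with none of the 4 gate transcripts held no fixed place between the other gates. In the negative gate Cd2 stood at 390, 124, 272 and 292 CPM, Cd5 at 151, 92.2, 43.4 and 42.8 CPM, Cd28 at 532, 265, 324 and 306 CPM and Thy1 at 656, 354, 373 and 301 CPM in stomach, small intestine, cecum and colon. Each of these 4 genes was above the Cd8a-only gate in small intestine, cecum and colon, by the smallest margin for Thy1 in the cecum (373 against 354 CPM). No member was called between the negative and Cd8a-only gates by edgeR (2.38% of all genes were; 4 members had an unadjusted p under 0.05 and DESeq2 called 1), and none between the negative and Cd8b1 gates (0.265% of all genes; 5 members had an unadjusted p under 0.05 and DESeq2 called 0). Thy1 in the negative gate was below the Trdc gate in stomach (656 against 1074 CPM) and cecum (373 against 443), and in colon Cd2 and Cd28 in the negative gate were at or above the Cd8b1 gate (292 against 290 and 306 against 273). The estimates against the Cd8a-only gate were 1.52 (SE 0.48) for Cd28 and 1.36 (SE 0.37) for Cd5. Cells with Ncr1 or Eomes made up 23.7%, 4.80%, 2.69% and 5.44% of the negative gate in the order of the libraries, and their part in these levels was not tested.

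The Trdc gate differed between the 4 tissues. Against the small intestine, where Cd2 and Cd5 were not separable from background, the lower bounds of the 95% counting intervals put Cd2 at least 10.6-fold higher in stomach, 9.10-fold higher in cecum and 5.15-fold higher in colon. Cd28 was 17-fold, 10.8-fold and 4.09-fold higher in the same order, and Thy1 6.76-fold, 2.79-fold and 1.60-fold higher. Cd5 was at least 2.49-fold higher in stomach and 2.69-fold higher in cecum, while its colon ratio had an interval that included 1 (0.887 to 3.12). Sit1, which was not separated from background in the small intestine either, was at least 9.36-fold higher in stomach and 1.12-fold higher in cecum. Its colon ratio had an interval that included 1 (0.770 to 1.90). For Cd27 the 3 ratios had intervals that included 1, and Cd48 was 1.24-fold higher in cecum (1.10 to 1.40) and 1.11-fold higher in colon (1.02 to 1.21). With 1 library per tissue no test was possible, and these intervals cover counting error only. Transcripts of recirculating T cells moved with Cd2 and Cd28 between the 3 intestinal libraries: in the Trdc gate Klf2 was at 97.1, 981 and 406 CPM and S1pr1 at 5.02, 77.3 and 42.6 CPM in small intestine, cecum and colon. The stomach Trdc gate, with the highest Cd2 and Cd28, did not follow for Klf2, at 179 CPM (112 to 271) and below the colon. Its S1pr1 was at 32.6 CPM on 4 UMIs, with an interval (8.87 to 83.3) that held the colon value. Of the stomach Trdc cells 28.6% had Ncr1 or Eomes. The part of these cells and transcripts in the result was not tested. In the Cd8a-only gate Cd2 was 4.23-fold higher in cecum than in small intestine (3.13 to 5.85) and 3.60-fold higher in colon (2.69 to 4.93), and Cd28 3.09-fold (2.38 to 4.05) and 1.32-fold higher (1.02 to 1.74). Thy1 there was 3.39-fold (2.78 to 4.16) and 2.01-fold higher (1.66 to 2.46), ratios above those of the Trdc gate.

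Within the Trdc gate, cells that also carried Cd8a had less of the core receptors in small intestine and colon. In the small intestine 1340 Trdc cells had Cd8a and 212 did not, and Cd28 was at 13.3 against 38.1 CPM, Cd2 at 10.3 against 34.1, Cd5 at 2.44 against 22.1 and Thy1 at 130 against 375. The colon had 451 and 431 such cells, with Cd28 at 18.8 against 129 CPM, Cd2 at 44.5 against 151, Cd5 at 2.68 against 14.7 and Thy1 at 197 against 331. The fold difference in Cd28 was 2.86 (1.59 to 4.95) in small intestine and 6.88 (4.78 to 10.2) in colon. In the cecum, with 130 and 371 cells, Cd28 was 2.48-fold lower with Cd8a (1.66 to 3.82), whereas the intervals for Cd2 (153 against 168 CPM), Cd5 (21.0 against 25.3) and Thy1 (401 against 461) included a ratio of 1. Stomach had 3 Trdc cells with Cd8a and 39 without, too few to compare. Cells with Ncr1 or Eomes were 1.12% against 3.30% of the cells with and without Cd8a in small intestine, 1.54% against 4.58% in cecum and 0.665% against 5.34% in colon, and their part was not tested.

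**Figure D3:**
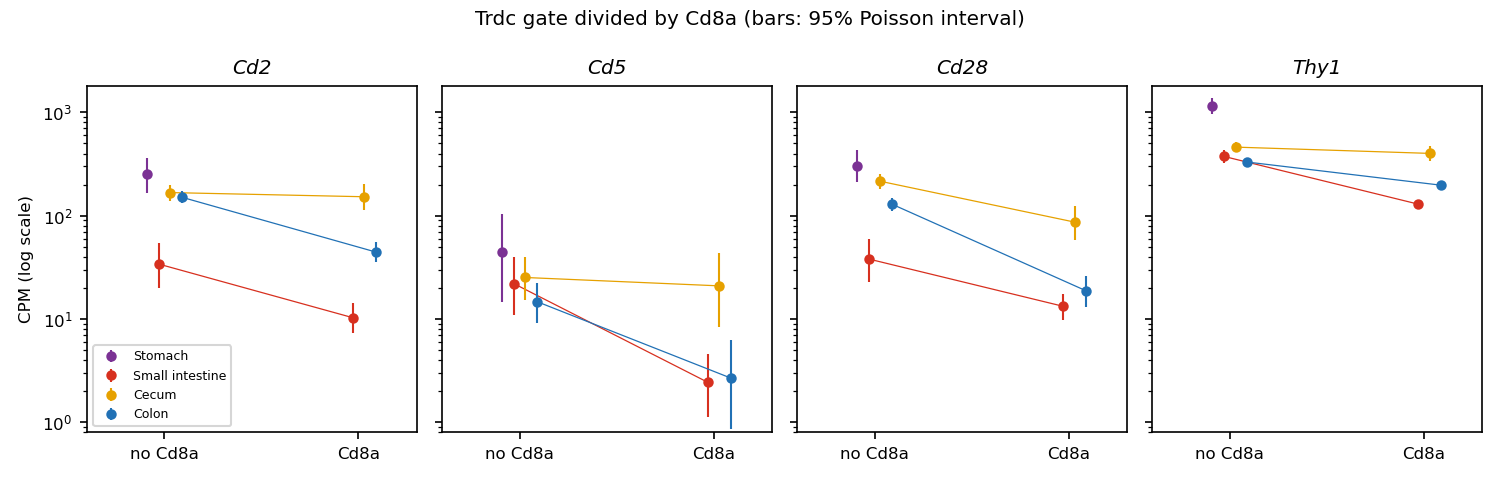
Level of Cd2, Cd5, Cd28 and Thy1 (CPM, log axis) in Trdc-gate cells without and with Cd8a, 1 colour per library, with bars for the 95% Poisson interval; stomach has only the group without Cd8a because 3 cells had Cd8a. Small intestine and colon fall in all 4 genes from left to right, and cecum falls beyond its intervals for Cd28 alone.

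Free RNA in droplets gives UMIs to cells that do not express a gene, so the natural-type gates were set beside macrophage- or mast-marked cells of the same library that had no Cd3 UMI. In the small intestine these 89 cells held 10.9 CPM of Cd2 on 3 UMIs, 7.24 CPM of Cd5 on 2 UMIs, and no UMI of Cd28 or Thy1. The small intestinal Trdc gate was at 1.21 times that Cd2 level (0.393 to 6.05) and 0.661 times that Cd5 level (0.161 to 5.83), so neither transcript was detectable above the background at this depth. Its Thy1 was at least 14.6-fold above background and its Cd28 at least 1.5-fold, computed against the limit of 3 UMIs that a count of 0 allows. In stomach, cecum and colon the Trdc gate held Cd2 at 14.1 times (8.91 to 21.8), 16.2 times (2.87 to 644) and 11.3 times (3.11 to 94.1) the background. Cd5 in the colon Trdc gate was again not separable from it (0.660 times, 0.202 to 3.41). In thinned cells, as described below, the background had 0 cells with Cd5 in small intestine, cecum and colon. The exact upper bounds were 4.06%, 11.2% and 8.22%. Cd5 was in 0.387%, 2.43% and 0.795% of Trdc cells and 2.23%, 2.84% and 0.683% of Cd8a-only cells in that order. These shares did not separate Cd5 from background. The cecal background rested on 31 cells, too few to show whether Cd5 there was above it. Sit1 was in 0.967%, 2.03% and 1.59% of Trdc cells and 0.893%, 1.42% and 1.745% of Cd8a-only cells in the same order. The background had 0 cells with Sit1 and the same upper bounds, so these shares did not separate Sit1 from it. B-marked cells are no background for Cd2 or Cd48, since they held 254 to 489 CPM of Cd2.

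Counted cell by cell, the small intestinal Trdc and Cd8a-only gates had the highest shares of any gate of cells lacking all of Cd2, Cd5, Cd28 and Thy1. After each cell was thinned to 1000 UMIs, 85.8% of the small intestinal Trdc gate (1332 of 1552 cells, exact 95% interval 84.0 to 87.5) and 86.8% of its Cd8a-only gate (389 of 448, 83.3 to 89.8) had no UMI of any of the 4. The Trdc gate had 16.7% such cells in stomach (7 of 42), 51.7% in cecum and 68.7% in colon, and the Cd8a-only gate 51.9% in cecum and 67.9% in colon. In the Cd8b1 gate the shares were 4.26%, 34.8%, 31.4% and 41.1%, and in the Cd4 gate 0%, 15.7%, 9.30% and 14.0%; the stomach value is 0 of 27 cells, with an upper interval bound of 12.8%. Each natural-type gate in small intestine, cecum and colon therefore had a higher share than the Cd8b1 and Cd4 gates of its library, with intervals that did not overlap. The negative gate had 30.5%, 59.6%, 41.9% and 46.8%, by value between the natural-type and conventional gates in small intestine, cecum and colon. In stomach its share was above that of the Trdc gate. Its interval overlapped that of the Cd8b1 gate in cecum (39.5 to 44.4 against 23.7 to 39.9) and in colon (43.4 to 50.2 against 32.9 to 49.7).

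Macrophage- or mast-marked cells set the ceiling for such a share, at 97.8%, 100%, 100% and 97.7%. Of the Cd3-positive groups, the small intestinal Trdc cells with Cd8a had the nearest value, 88.4% (86.5 to 90.0), against 71.7% (65.1 to 77.7) of those without Cd8a; in colon the shares were 78.3% and 56.7%, and in cecum 54.6% and 48.2%. Without thinning the small intestinal Trdc and Cd8a-only shares were 75.3% and 77.9%, those of the cecum 33.9% and 33.8%, and those of the colon 40.8% and 38.3%. Thinning left out 8 of 501 Trdc cells in the cecum, 1 of 882 in the colon and none in the other 2 libraries. A cell without a UMI is not shown to lack the transcript, since at this depth most mRNA molecules are not captured.

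**Figure D4:**
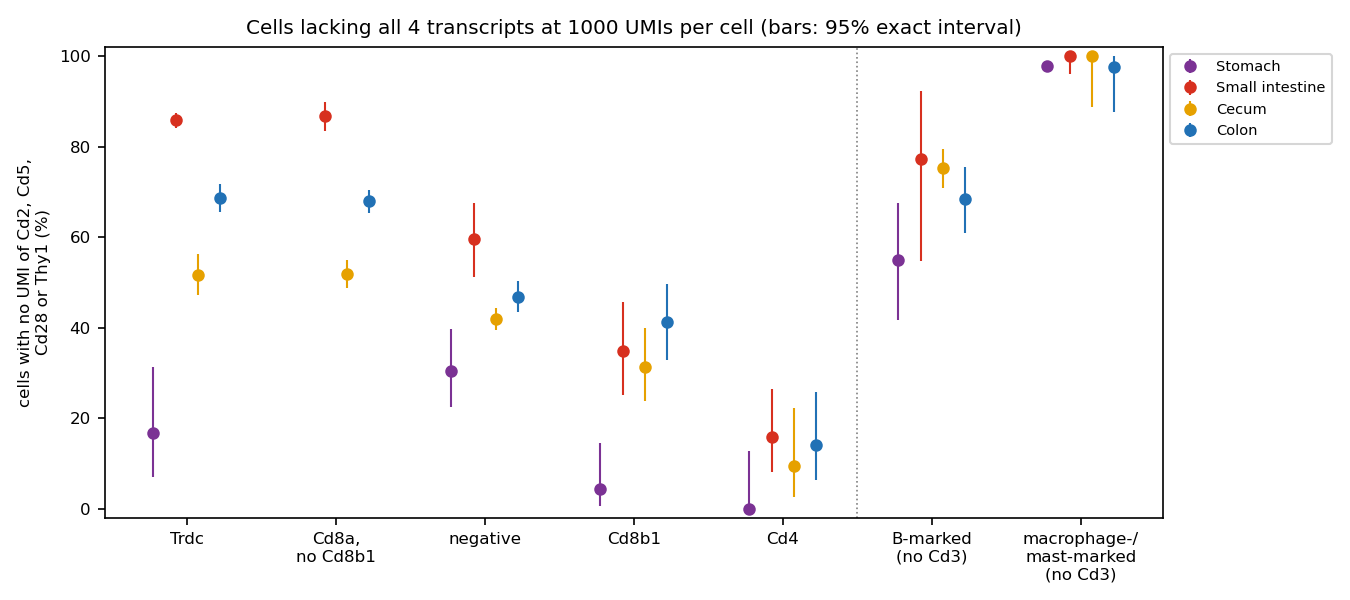
Share of cells (y axis, %) with no UMI of Cd2, Cd5, Cd28 or Thy1 at 1000 UMIs per cell, by gate, with 1 colour per library and bars for the exact 95% interval; cells without Cd3 stand right of the dotted line. The small intestinal Trdc and Cd8a-only gates reach 85.8% and 86.8%, below the 97.7% to 100% of macrophage- or mast-marked cells and above all Cd8b1 and Cd4 gates.

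Within a gate the absence of the 4 transcripts was close to what their separate frequencies give. In the small intestinal Trdc gate 85.8% of cells lacked all 4, and the product of the 4 separate shares was 85.0%; in the cecal and colonic Trdc gates the pairs were 51.7% and 51.0%, and 68.7% and 66.7%. The observed share was above the product in the small intestinal negative gate (59.6% against 52.1%) and the colonic Cd8b1 gate (41.1% against 34.3%). The same held for the stomach negative gate (30.5% against 24.4%). It was below the product in the stomach Cd4 gate (0% against 7.53%, 27 cells) and the cecal Cd4 gate (9.30% against 13.7%, 43 cells). Each of these products lay inside the exact interval of its observed share. In the colonic negative gate alone the interval excluded the product, which was lower (46.8%, 43.4 to 50.2, against 41.95%). These intervals cannot decide dependence, because each product comes from the same cells. In the small intestinal negative gate Thy1 was in 52% of the 25 cells with Cd28 (31.3 to 72.2). It was in 19.8% of the 121 cells without Cd28 (13.1 to 28.1). In the cecal Trdc gate the same shares were 32.2% and 32.7%, with overlapping intervals. Across all Cd3-positive cells of the small intestine the genes went together: at 1000 UMIs, 22.3% of the 130 cells with Cd28 had Cd5 (15.5 to 30.4), against 1.60% of the 2251 cells without (1.12 to 2.21), and Cd2 was in 18.5% against 2.49%. Cd27 (6.15% against 8.13%) and Cd48 (23.8% against 22.9%) did not differ in this way beyond their intervals. The contrast was smaller in the cecum, where Cd5 was in 7.09% of cells with Cd28 and 2.97% of those without. In the colon these shares were 8.09% and 1.47%. In the stomach they were 19.8% (12.2 to 29.45) and 17.6% (11.8 to 24.7), with overlapping intervals.

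Over the 19 gate sums, after each library's mean was subtracted, Cd2 and Cd28 had the closest pattern of any pair of members (Pearson r = 0.98 of log2 CPM). Cd5 followed Cd28 (0.94), Cd6 (0.93) and Cd2 (0.92), and Thy1 was most like Sit1 (0.86) and Cd28 (0.79). Cd48, with r between -0.04 and 0.39 to the other members, and Cd27, with r between -0.02 and 0.49, followed the rest least. The 19 points share libraries, cells of the same mice and the gate definitions, so these values are descriptions. Among 7132 other genes the pattern of Cd2 was most closely matched by Gramd3 (0.96), Erich1, Tpm4, Ms4a4b and Satb1, and that of Cd28 by Erich1 (0.96), Iqgap2, Ms4a4b, Gramd3 and A130040M12Rik. The genes most like Cd5 were Samhd1 (0.95), Ly6a, Gpr183, Ms4a6b and Sh2d1a, and those most like Thy1 were Ms4a4c (0.94), Ubash3a, Myl12b, Coro1a and Ms4a4b.

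Genes of receptor signalling other than the members moved in both directions. Like the members, the gene lists used here and below were chosen with earlier results of these data known. Of 27 tested genes of T cell receptor signalling, 9 were lower and 5 higher in the natural-type gates (median log2 fold change -0.12, against 0.01 over all genes, of which 7.31% were called lower and 6.05% higher; the same shares stand beside the counts of the other 3 lists). Lower were the phosphatase-family regulator Ubash3a (-1.92, SE 0.33), the scaffold adaptor Lat (-1.54, SE 0.09) and Themis, which acts in thymic selection (-1.40, SE 0.26), and higher was the inhibitory adaptor Dok1 (1.07, SE 0.18); adjusted p-values of these 4 were between 3.37e-17 and 0.000138. Among 20 tested costimulatory and SLAM-family genes 10 were lower and 4 higher (median -0.58). The lowest were the CD40 ligand gene Cd40lg (-4.86, SE 0.57), the costimulator Icos (-2.61, SE 0.52), Slamf1 (-2.59, SE 0.34) and Sh2d1a, the adaptor of SLAM receptors (-2.14, SE 0.30). The members raised were Cd244a, which like CD2 binds CD48, Cd96, Crtam and Tnfrsf9.

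The 2 lists that describe the cell types moved in opposite directions. Of 21 tested genes of natural intraepithelial lymphocytes 15 were higher in the natural-type gates and the other 6 were not called (median 1.59), led by the integrin gene Itgad (2.65, SE 0.42), the signalling adaptors Tyrobp (2.43, SE 0.36) and Fcer1g (2.15, SE 0.32), and the receptor tyrosine kinase gene Kit (2.03, SE 0.20). Of 13 genes of circulating and naive T cells 11 were lower and 1 (Bcl2) was higher (median -2.16), with Dapl1 at -6.28 (SE 0.49), the homing receptor gene Ccr7 at -4.94 (SE 0.43) and the interleukin-7 receptor gene Il7r at -3.23 (SE 0.47). Circulating-cell transcripts thus moved with Cd2, Cd5 and Cd28, and their part in those differences was not tested. In the small intestinal Cd4 gate, where Cd28 was at 1073 CPM, Ccr7 was at 18.6 CPM, S1pr1 at 43.4 and Klf2 at 571, against 575, 599 and 2940 CPM in the colonic Cd4 gate with Cd28 at 716 CPM. In the small intestinal Cd4 gate Ccr7 and S1pr1 rested on 3 and 7 UMIs. Foxp3, the regulatory T cell factor, was at 43.4 CPM there on 7 UMIs (17.5 to 89.5). In the colonic Cd4 gate it was at 5.87 CPM on 1 UMI (0.149 to 32.7), so the intervals overlapped.

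The cells of mixed status did not resemble a single gate. In the 76 small intestinal cells with at least 2 of Trdc, Cd8b1 and Cd4, Cd28 was at 107 CPM, between the Trdc (16.3) and Cd8b1 (356) gates, and Cd2 was at 78.0 CPM, between 13.2 and 131. Their median of 2984 UMIs per cell was above the 2366 of the Trdc gate, and no doublet caller was run.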

How the data were processed

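The 4 matrices hold raw UMI counts as deposited by the authors, 1 whole number for each gene and barcode; per the labels, sorted CD45.2+ cells were run with 10x Genomics 3′ chemistry. The extract protocol speaks of colons alone, so tissues were taken from the tissue labels. The submitters' processing notes name Cell Ranger, Seurat 3.0.0 and the builds GRCm38 and mm10.

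Barcodes with at least 200 genes and at least 2 Cd3 UMIs were kept. Of these, 77, 157, 110 and 115 cells (stomach, small intestine, cecum, colon) with at least 2 markers of another lineage were left out, leaving 239, 2381, 3363 and 3269. No doublet caller was run. UMIs were summed per gate and library (19 sums of at least 10 cells) and tested with edgeR 4.0.16 (TMM, filterByExpr, quasi-likelihood, library as block, Benjamini-Hochberg over 7157 genes, threshold 0.05); DESeq2 1.42.0 was an alternative. The tests were tried on simulated counts. Levels are CPM with exact Poisson intervals, library ratios carry exact conditional binomial intervals and shares carry Clopper-Pearson intervals, all at 95% and for counting error only. Correlations used log2 CPM with a prior count of 1.

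The members, gates and gene lists were chosen with earlier results of these data known. All 8 members are named, with the 4 called genes of largest change per list (1 of them is not reported here) and the 5 genes most like Cd2, Cd5, Cd28 and Thy1. Mast-marked cells joined the background after the values were seen. Background cells had at least 2 markers of 1 lineage and no Cd3 UMI. Positions come from GENCODE M21.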

Additional observations from a re-analysis of the deposited data

Results flagged for a closer look

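Cd27 in the negative gate relative to the Cd8a-only gate went in opposite directions in 2 tissues. In the small intestine the ratio was 0.590 (95% counting interval 0.351 to 0.945), so Cd27 was lower in the negative gate, and in the colon it was 1.19 (1.01 to 1.41). The difference between the tissues was not tested, since each has 1 library, and the small intestinal negative gate rests on 21 UMIs of Cd27 in 146 cells.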

How the results depend on the processing

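In the natural-type against conventional contrast, 115 of 120 alternative values of the 8 members kept their direction and side of the threshold, 4 lost their call, 1 gained one and 0 reversed; the count of members called lower ran from 4 to 7. The labels give no shared replicate numbers, and the libraries served as the block. Without the replicate block, Cd2 (adjusted p = 0.0908) and Thy1 (adjusted p = 0.163) lost their calls, and the members called lower numbered 1 for Trdc against Cd8b1 (10 of all genes), 3 for Trdc against Cd4 (117), 0 for Cd8a-only against Cd8b1 (5) and 3 for Cd8a-only against Cd4 (164). Leaving out 1 library at a time gave 0 to 3, 2 to 6, 0 to 3 and 2 to 6 in the same order, and 0 to 1 members called higher both for Trdc against Cd8a-only and for the negative against the Cd8a-only gate. With gate markers from 2 UMIs the Cd8a-only gate had 5 members lower than Cd8b1 and 3 lower than Cd4, and 1 was higher in the negative than in the Cd8a-only gate. DESeq2 called 7 for Cd8a-only against Cd8b1, 1 higher for Trdc against Cd8a-only and 1 higher for negative against Cd8a-only.

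Of 840 pairwise values 765 held, 50 lost and 19 gained a call, and 6 uncalled ones changed sign: Cd27 between the Cd8a-only and Cd8b1 gates (0.0761 without the colon, -0.32 without the small intestine), Cd6 between the Trdc and Cd8a-only gates (0.28 without the small intestine, -0.66 without the colon), Cd28 there without the replicate block (0.0904), and Cd27 between the negative and Cd8a-only gates with DESeq2 (-0.0450), without the cecum (-0.02) and without the colon (-0.17; 0.19 without the small intestine). The causes were not tested. Median shares of cells lacking the 4 transcripts, 67.9%, 11.7% and 44.4% in the Cd8a-only, Cd4 and negative gates, were 38.3%, 3.90% and 24.1% without thinning; at either depth a transcript present in few copies can go undetected. Over all genes, 523 were lower and 433 higher with all 4 libraries and the block, 166 and 144 without the block, 326 and 386 with gate markers from 2 UMIs, 235 and 238 without the colon, and 511 and 650 with no low-count filter, where the median log2 fold change was 0.13. Of 960 CPM values, 42 moved by more than their counting interval.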
